A study of Vulpes lagopus with 12 samples.

Results

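Transcripts of the circadian clock were read in blood of wild Arctic foxes (Vulpes lagopus). The clock genes were every probe set whose only gene symbol in the array's annotation was PER1, PER2, PER3, CRY1, CRY2, CLOCK, NR1D1, NR1D2, DBP or BHLHE40. Of these 10 genes, 8 had such a probe set, and together they had 22 of the 42924 probe sets tested. NR1D1 and DBP had none and are not analysed here. PER1 had 6 probe sets, NR1D2 had 5, BHLHE40 had 3, PER2, PER3 and CLOCK had 2 each, and CRY1 and CRY2 had 1 each. Each gene is described by its brightest probe set, the one whose mean over the 12 arrays is highest, and the others are given where they differ.

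The study looked at fox blood with regard to polychlorinated biphenyls, which are persistent industrial pollutants, and mercury. It used Affymetrix arrays whose probes target dog sequence. There were 11 fox arrays and 1 array titled as a canine control, which the labels also describe as blood of Vulpes lagopus. Fox numbers follow the order of the samples in the series. No treatment, exposure level, age, sex or genotype of a single fox, and no hour of bleeding, was in the labels. Whether each of the 11 samples is a separate animal is not stated, so p-values measure only the spread between these samples, which may be partly technical.

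The clock is a feedback loop of transcription that runs in most cells with a period of about a day. CLOCK and its partner BMAL1 switch on the PER and CRY genes, and the PER and CRY proteins return to the nucleus and repress their own activators. The nuclear receptors NR1D1 and NR1D2 repress the BMAL1 gene, and BHLHE40 competes with CLOCK and BMAL1 for the same DNA element, the E-box. White blood cells carry this loop, and the level of its transcripts depends on the hour of sampling. PER1 is also induced directly by glucocorticoid hormones.

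All values are log2 signals after RMA, the authors' array normalization, and a difference of 1 is a doubling. Array medians were 7.06 to 7.17 for foxes, and the control's was 6.85. Foxes 9, 10 and 11 stood apart on the probe sets for GAPDH, which read RNA length: the signal at the 3' end exceeded that in the middle of the transcript by 0.42 to 1.08 there, by 2.56 to 3.19 for foxes 1 to 8 and by −0.08 on the control. The arrays did not share a distribution: taken over every tested probe set of an array, the SD was 1.93 to 2.02 for foxes 9 to 11, and the range for foxes 1 to 8 was 1.61 to 1.79. The spiked hybridisation controls averaged 14.01 in fox 2 and 11.65 to 12.35 in the other foxes. Among 9 measured genes that define blood, 6 were lower on the control and 0 higher, and the mean level was 7.34 there against 9.87 to 12.21 in the foxes. The control array instead carried liver genes (6 of 7 higher, mean 13.77 against 7.17 to 7.66) and gut genes (6 of 6 higher, mean 13.09 against 5.84 to 6.21), with 3 of 5 muscle genes higher and 1 lower. It is therefore called the array titled canine control, and its marker genes go against its blood label.

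By their brightest probe sets, PER1, CRY1 and BHLHE40 varied widely among the foxes. The other 5 clock genes had an SD of 0.14 to 0.22, close to that of the median gene. The SD over the 11 foxes was at least 0.5 for these 3 of 8 genes, where 18.3% of all genes reached that spread. Over all 22 probe sets the count was 3, against 14.8% of all probe sets. The median SD of the 8 genes was 0.21, against 0.23 for all genes. In blood, fewer cells of a type and less RNA per cell cannot be told apart, here and in every result that follows. The files held no detection call. Of the 22 probe sets, 7 were brighter on average than the median over all probe sets: 5 of PER1, the 1 of CRY2 and the brightest of BHLHE40.

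**Figure D1:**
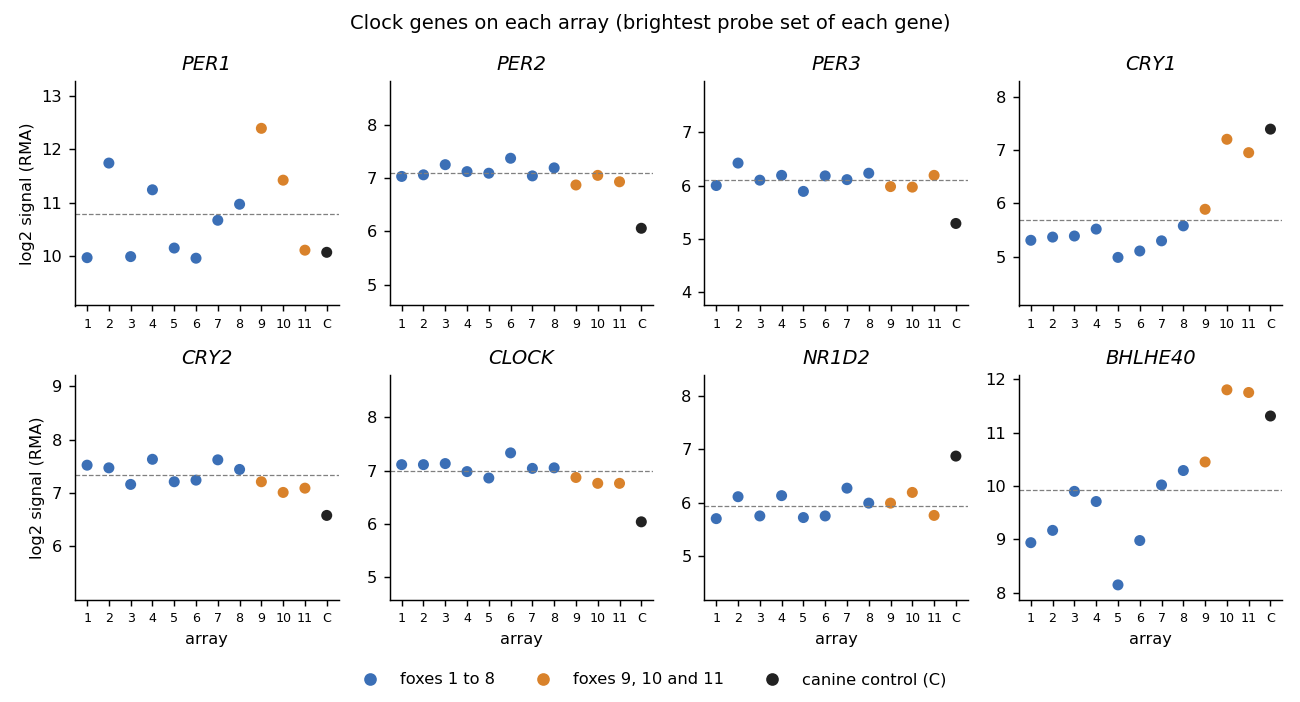
Log2 RMA signal of the brightest probe set of each of 8 clock genes (vertical axis) on each array (horizontal axis: foxes 1 to 11, then C for the canine control); each panel's vertical axis spans the same number of log2 units, and the dashed line is the mean of the 11 foxes. PER1 scattered from 9.96 to 12.39, CRY1 and BHLHE40 were highest in foxes 9, 10 and 11 among the foxes, and PER2, PER3, CRY2 and CLOCK were lowest on the control.

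CLOCK, the DNA-binding activator of the loop, was among the steadiest members. Its signal ran from 6.76 in fox 10 through a median of 7.04 to 7.33 in fox 6, with a mean of 7.0 ± 0.17 (SD, n = 11). Foxes 9 to 11 lay at 6.76 to 6.87, at the low end, and overlapped foxes 1 to 8 only through fox 5 at 6.86. The second CLOCK probe set fell to 6.19 in fox 10 and to 6.72 and 6.76 in foxes 11 and 9, below the 6.87 to 7.17 of foxes 1 to 8. Over foxes 1 to 8 the 2 CLOCK probe sets did not rise and fall together, with a Pearson's r of −0.14.

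PER1, the period repressor that also answers to glucocorticoids, had the widest range of the 3 PER genes. Its brightest probe set read 9.97, 11.74, 9.99, 11.24, 10.15, 9.96, 10.67, 10.97, 12.39, 11.42 and 10.11 in foxes 1 to 11, a mean of 10.78 ± 0.84 (SD, n = 11). Foxes 9, 2, 10 and 4 were high, and foxes 6, 1, 3, 11 and 5 were within 0.2 of one another at the low end. Foxes 9 to 11 overlapped foxes 1 to 8, and the SD within foxes 1 to 8 was 0.68.

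The other 5 PER1 probe sets did not show all of this pattern. None of them had an SD of 0.5 or more over the foxes. In 3 of them fox 2 was the highest of all 11 foxes, at 9.88, 9.09 and 8.36, as it was among foxes 1 to 8 on the brightest. Fox 9, which topped the brightest probe set, was the highest of 11 on just 1 of the others, at 7.57. Over foxes 1 to 8 the brightest probe set had an r of 0.67, 0.79 and 0.84 with those 3, and of 0.17 and 0.09 with the remaining pair, which ran against each other with an r of −0.79. None of the 31 pairs of probe sets of the same gene passed the threshold by exact permutation after Benjamini-Hochberg adjustment over the pairs.

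PER2 and PER3, the other period repressors, stayed within narrow bands. PER2 ran from 6.87 in fox 9 through a median of 7.06 to 7.37 in fox 6, a mean of 7.09 ± 0.14 (SD, n = 11). PER3 ran from 5.89 in fox 5 through 6.11 to 6.42 in fox 2, a mean of 6.11 ± 0.15 (SD, n = 11). Foxes 9 to 11 overlapped the rest for both genes on these probe sets. On the second PER2 probe set they did not, with 5.04 to 5.17 in foxes 9 to 11 below 5.24 to 5.54 in foxes 1 to 8. The second PER3 probe set was dim and nearly constant, from 3.65 to 3.91. The paired probe sets of PER2 and of PER3 had an r of −0.44 and −0.37 over foxes 1 to 8.

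The cryptochromes CRY1 and CRY2, which pair with the PER proteins, behaved differently from each other. CRY1 lay between 4.99 and 5.58 in foxes 1 to 8 and at 5.89, 7.20 and 6.95 in foxes 9, 10 and 11, so the groups did not overlap. Its mean was 5.69 ± 0.73 (SD, n = 11), but within foxes 1 to 8 the SD was 0.20. CRY2 ran from 7.01 in fox 10 through 7.24 to 7.63 in fox 4, a mean of 7.33 ± 0.22 (SD, n = 11). Its 3 values for foxes 9 to 11, 7.01 to 7.21, were at the low end and overlapped the 7.16 to 7.63 of foxes 1 to 8.

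NR1D2, the nuclear receptor of the stabilising arm, ran from 5.70 in fox 1 through 5.99 to 6.27 in fox 7, a mean of 5.94 ± 0.21 (SD, n = 11). Foxes 2, 4, 7 and 10 were above 6.10 and foxes 1, 3, 5, 6 and 11 below 5.80. Its second probe set had nearly the same mean, 5.93 ± 0.23 (SD, n = 11), and its lowest foxes were among the highest on the first, with foxes 7 and 2 lowest at 5.55 and 5.63 and fox 11 highest at 6.32. The r between these 2 NR1D2 probe sets over foxes 1 to 8 was −0.82 (Spearman's rho −0.64, exact permutation p 0.0109, adjusted over the 31 pairs 0.105), and −0.86 without foxes 4 and 7. The opposite order did not pass the threshold.

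BHLHE40, the E-box repressor, had the widest spread of the 8 genes. Its signal was 8.94, 9.17, 9.90, 9.71, 8.15, 8.98, 10.02 and 10.29 in foxes 1 to 8 and 10.45, 11.80 and 11.75 in foxes 9, 10 and 11. Fox 5 was lowest, and foxes 9 to 11 were all above the other 8, fox 9 by only a little. The mean was 9.92 ± 1.14 (SD, n = 11), and the SD within foxes 1 to 8 was still 0.71. The second BHLHE40 probe set placed foxes 9 to 11 lowest, at 6.24 to 6.30 against 6.37 to 6.80. The third ran from 5.80 to 6.59, with fox 5 highest. Over foxes 1 to 8 the brightest probe set had an r of −0.54 and −0.53 with these (rho −0.60 and 0.05). These became −0.10 and 0.13 without foxes 5 and 8, so neither is shown to hold without those foxes.

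Foxes 9 to 11 thus lay above all other foxes for CRY1 and BHLHE40, 2 of 8 genes, where 14.2% of all genes did. They lay below for 0 of 8, against 14.6% of all genes. By probe sets, 2 of 22 were above and 5 were below, against 12.6% and 14.6% of all probe sets. The 5 below were the second sets of CLOCK, PER2 and BHLHE40, 1 of PER1 and the dimmest of NR1D2. These 3 foxes were set apart by the GAPDH control, not by the clock genes. Their scores for most blood cell lists were also higher. A score is an average over the list of each gene's log2 signal minus its mean in the foxes. The neutrophil score was 0.37 to 1.44 there against −0.95 to 0.37 for foxes 1 to 8. The monocyte score was 0.69 to 1.02 against −0.68 to 0.09 and the platelet score 0.46 to 0.81 against −0.65 to 0.28. The lymphocyte score was 0.07 to 0.39 against −0.14 to 0.03. The erythroid score, 0.16 to 0.35, lay inside the −0.70 to 0.69 of foxes 1 to 8. The part of cell makeup, RNA length and array distribution in the high CRY1 and BHLHE40 of these foxes was not tested. Without them, PER1 and BHLHE40 kept an SD of at least 0.5 and CRY1 did not, a count of 2 of 8 where 9.61% of all genes reached it.

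**Figure D2:**
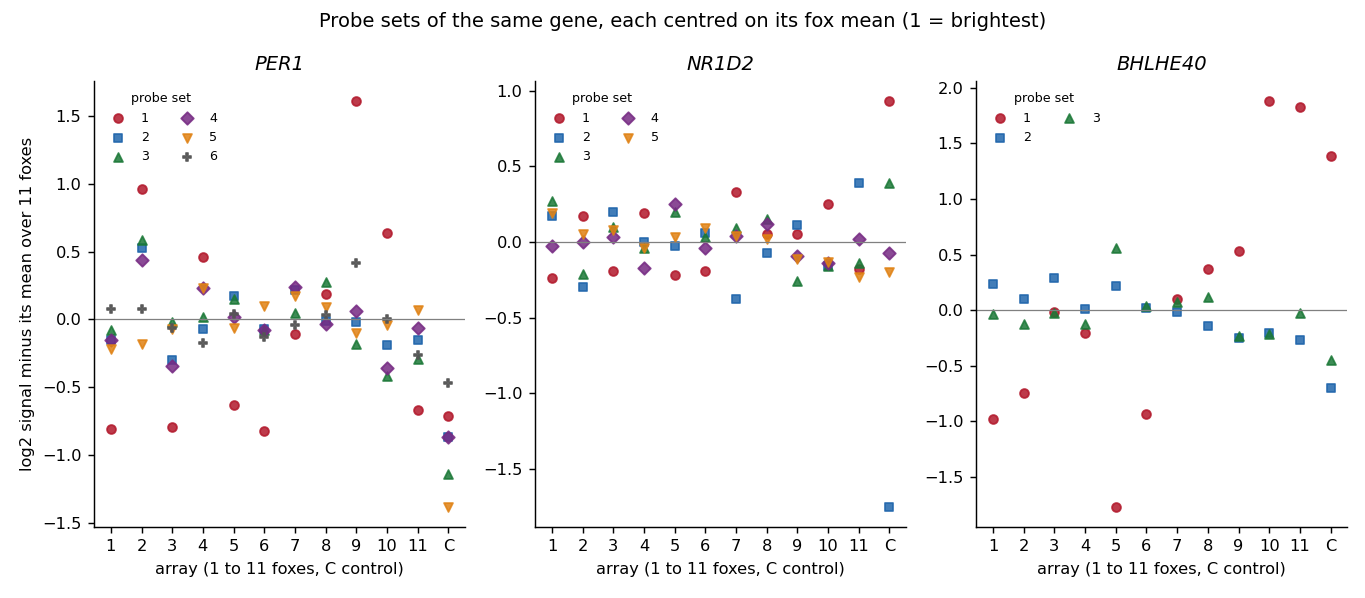
Each probe set of PER1, NR1D2 and BHLHE40, shown as its log2 signal minus its own mean over the 11 foxes (vertical axis) on each array (horizontal axis, C is the canine control); numbers rank the probe sets of a gene from the brightest. PER1 probe set 1 spans 2.43 over the foxes against 1.01 or less in the others, NR1D2 sets 1 and 2 lie on opposite sides of 0 on the control at 0.93 and −1.75, and only set 1 of BHLHE40 is high in foxes 10 and 11.

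Each fox was then set against the other 10 by limma, since the labels give no groups among them. The fox tested adds no spread to its own test. The spread is that of the other 10 foxes, which limma draws towards the spread of all probe sets. For most foxes those 10 include all 3 of the separated ones. For CRY1 the SE in foxes 1 to 9 was 0.68 to 0.72 where the SD within foxes 1 to 8 was 0.20. A departure as small as the spread within foxes 1 to 8 could not pass there, and with limma over those 8 foxes alone 0 of 64 tests passed. None of the 88 tests of a clock gene in a fox passed an adjusted p of 0.05, and the lowest was 0.243, for CRY1. Over all genes the calls were equally few, from 0% of genes in 8 foxes to 0.086% in fox 2, 0.0331% in fox 10 and 0.00662% in fox 11. At an unadjusted p under 0.05, 5 of the 88 tests passed, 5.68%, against 5.52% of such tests over all genes. Those were PER1 in fox 9 (1.77 above the mean of the others), CRY1 in fox 10 (1.66 above) and fox 11 (1.38 above), BHLHE40 in fox 10 (2.07 above) and PER3 in fox 2 (0.33 above). All 5 were upward, and no fox had more than 2 of them.

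Joint variation was examined only within foxes 1 to 8, because 11 foxes in a separated 8 and 3 would mostly show that split. No pair of clock genes could be called. Of 28 pairs of genes, 0 passed the threshold by exact two-sided permutation of Pearson's r after Benjamini-Hochberg adjustment, and 4 had an unadjusted p under 0.05. That was 14.3% of the pairs, where 11.1% of all relations of a clock gene with any other gene reached it, from 2.65% for CLOCK to 24.4% for PER1. With 8 foxes a pair that did not pass is not shown to vary apart. CRY1 and BHLHE40 had an r of 0.83 (rho 0.69, exact permutation p 0.00987, adjusted 0.266, rho's p 0.0694), which fell to 0.49 without foxes 5 and 8. PER1 and PER3 had an r of 0.77 (rho 0.67, exact permutation p 0.0204, adjusted 0.266, rho's p 0.0831), which fell to 0.47 without foxes 2 and 4. Neither relation is shown to hold without the foxes left out. Leaving out the 2 foxes farthest from the first gene's median also narrows its range, which alone can lower r. PER1 and NR1D2 had an r of 0.79 (rho 0.71, exact permutation p 0.0284, adjusted 0.266, rho's p 0.0576) and 0.79 without foxes 2 and 4. CRY2 and NR1D2 had an r of 0.76 (rho 0.55, exact permutation p 0.0458, adjusted 0.320, rho's p 0.171) and 0.66 without foxes 3 and 5. The activator CLOCK and its target PER2 had an r of 0.66, which became −0.26 without foxes 3 and 6, and PER2 and CRY2 ran against each other at −0.65, or −0.23 without the same 2 foxes. Without fox 1, 1 pair passed the adjusted threshold.

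PER3 followed the neutrophil genes most closely among 48 relations of 8 clock genes with 6 list scores (neutrophil, monocyte, lymphocyte, erythroid, platelet, glucocorticoid) over foxes 1 to 8. Its r with the neutrophil score was 0.95 and its rho 0.98 (exact permutation p 0.000198 and 0.000397, adjusted over the 48 relations 0.00952 and 0.0190), and r was 0.96 without foxes 2 and 5. The score of foxes 1, 5, 3, 7, 6, 4, 8 and 2 was −0.95, −0.87, −0.63, −0.55, −0.43, −0.14, 0.01 and 0.37, and PER3 read 6.0, 5.89, 6.10, 6.11, 6.18, 6.19, 6.23 and 6.42 in the same foxes. The order of PER3 was that of the score except for foxes 1 and 5 at the low end. The whole span of PER3 here was 0.53. The second PER3 probe set gave an r of −0.29 with the same score (exact permutation, adjusted 0.836). Foxes 9 and 10 were off the line, with scores of 1.38 and 1.44 and PER3 at 5.98 and 5.97. Fox 11 was below it too, with PER3 at 6.19 where fox 2, at the same score of 0.37, had 6.42. Without fox 1, fox 2 or fox 3 the adjusted exact permutation p was 0.0762, 0.0905 and 0.0571 with an r of 0.95, 0.89 and 0.95.

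The relation of PER1 to 3 of the 6 list scores passed the threshold, and those to 2 more were nearly as strong. Its r was 0.92 with the monocyte score (rho 0.81, exact permutation p 0.00283, adjusted 0.0452, rho's p 0.0218) and 0.89 with the neutrophil score (rho 0.71, exact permutation p 0.00377, adjusted 0.0452, rho's p 0.0576). With the erythroid score, built on genes of red cell precursors such as ALAS2, it was 0.88 (rho 0.86, exact permutation p 0.00203, adjusted 0.0452, rho's p 0.0107). Without foxes 2 and 4 these became 0.88, 0.72 and 0.77. Foxes 2, 4 and 8 were the highest for PER1 and for the neutrophil score, and foxes 1, 3 and 5 were among the 4 lowest for both. Of the other PER1 probe sets, the 3 that followed the brightest also gave an r of 0.89, 0.85 and 0.91 with the erythroid score (exact permutation, adjusted over 48 relations of the PER1 and PER3 probe sets 0.0302, 0.0345 and 0.0302), and the other pair gave 0.16 and 0.18. With the neutrophil score these 5 gave 0.52, 0.76, 0.63, 0.19 and −0.02, and with the monocyte score 0.36, 0.65, 0.59, 0.31 and −0.07, none past the adjusted threshold. The relation to neutrophil and monocyte genes passed on the brightest probe set only. That to erythroid genes passed by r on 4 of 6, which are the same 4 that followed the spiked controls by r, as described below.

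These 3 relations of PER1 were just past the threshold, and most alternatives tried left them short of it. With each of foxes 1 to 8 left out in turn, the adjusted exact permutation p ran from 0.0333 to 0.244 for the erythroid score and passed only without fox 6 or fox 7. For the neutrophil score it passed only without fox 6, at 0.0349, and for the monocyte score it never passed. The glucocorticoid score, built on targets such as TSC22D3 and FKBP5, had an r of 0.78 with PER1 (rho 0.83, exact permutation p 0.0198, adjusted 0.115, rho's p 0.0154) and 0.76 without foxes 2 and 4, which did not pass. The platelet score had an r of 0.83 (rho 0.81, exact permutation p 0.0146, adjusted 0.115, rho's p 0.0218) and 0.79 without the same foxes, and the lymphocyte score one of −0.09. In all, 4 of the 48 relations passed. An unadjusted p under 0.05 was reached by 12, 25.0%, all of them of PER1, PER3, CRY1 or NR1D2. Over all genes outside each list, 16.3% of such relations reached it by the same exact permutation, from 2.5% with the lymphocyte score to 21.9% with the erythroid score, so a relation to these scores is not particular to clock genes.

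By Pearson's r, technical measures of the arrays moved with several of the same genes and scores in foxes 1 to 8. The SD over an array's probe sets had an r of 0.88 with PER1, 0.82 with CRY1 and 0.76 with PER3 (exact permutation, adjusted over 20 relations 0.0270, 0.0356 and 0.0482). By rho these did not pass (0.81, 0.74 and 0.81, exact permutation, adjusted 0.0622, 0.102 and 0.0622). The array SD had an r of 0.97 with the monocyte score and 0.87 with the neutrophil score. Its r of 0.65 with the erythroid score did not pass (exact permutation, adjusted 0.129). The spiked hybridisation controls, which do not come from the sample, had an r of 0.83 with PER1 (exact permutation p 0.000818, adjusted over 13 relations 0.00887) and 0.73 without foxes 2 and 4. With the 3 PER1 probe sets that also followed the erythroid score the r was 0.86, 0.91 and 0.80 (exact permutation, adjusted 0.0260, 0.0260 and 0.00887), and with the remaining pair −0.29 and 0.41. The spiked controls had an r of 0.85 with the erythroid score and 0.75 with the neutrophil score. Their r of 0.69 with PER3 did not pass (exact permutation, adjusted 0.215). Fox 2 stood alone on them, at 14.01 against 11.65 to 12.29 in the rest of foxes 1 to 8. By rho none of these relations of the spiked controls passed, with PER1 at 0.86 (exact permutation, adjusted 0.100). The part of these measures in the relations of PER1 and PER3 was not tested.

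**Figure D3:**
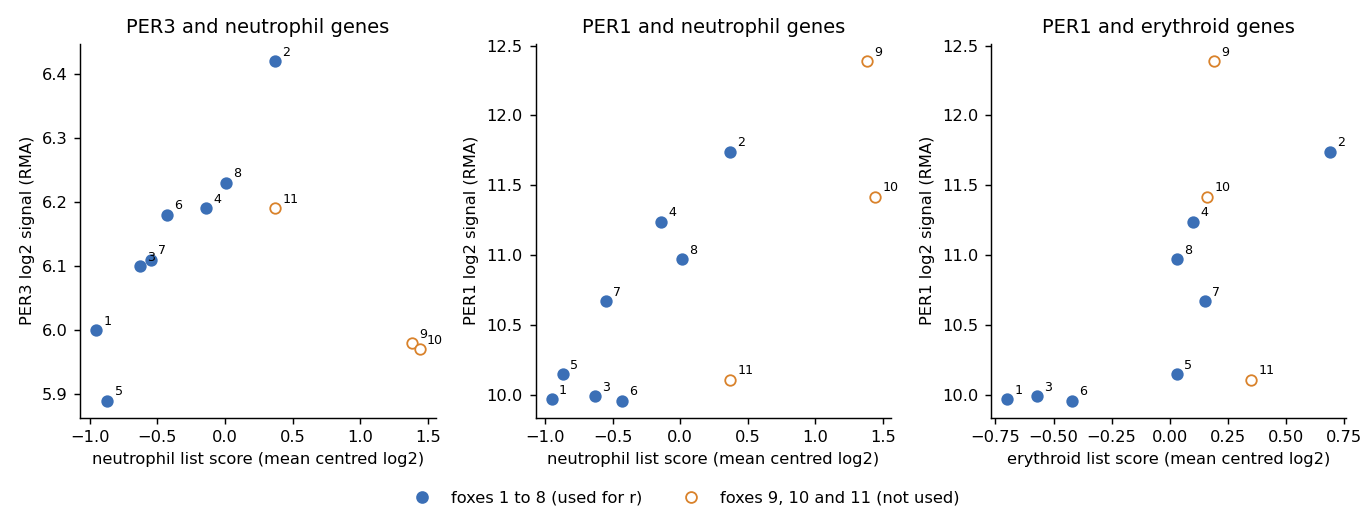
Log2 signal of PER3 or PER1 (vertical axes) against the neutrophil or erythroid list score, the mean of the list genes' log2 values centred on their fox means (horizontal axes); each numbered point is a fox, filled for foxes 1 to 8, over which r was taken, and open for foxes 9, 10 and 11. The filled points follow a rising line with r of 0.95, 0.89 and 0.88 from left to right. In the first panel foxes 9 and 10 lie far below it, and fox 11 also lies below it.

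The genes whose pattern over foxes 1 to 8 was most like that of a clock gene were then listed. The search took the 3 highest Pearson's r among genes brighter on average than the median gene, 7263 or 7264 candidates for each member. Of the clock genes only PER1 and BHLHE40 were bright enough to be candidates, so the search could hardly have named a clock gene. PER1 was most like H3-3A (r 0.993), SORL1 (0.987) and DRG2 (0.987), and PER3 most like TCF7L1 (0.973), ELL (0.957) and MMS22L (0.951). CRY1 came nearest to CTNNBL1 (0.984), AHCY (0.975) and AP1M1 (0.966), and BHLHE40 to HSD17B8 (0.993), ATP13A1 (0.976) and LRP10 (0.974). NR1D2 was nearest to SCAMP4 (0.992), PITRM1 (0.984) and PROCA1 (0.971), and CLOCK to LAS1L (0.986), THRAP3 (0.952) and PPP6R1 (0.938). For PER2 these were NDUFAF7 (0.965), IGF2BP1 (0.918) and HMG20B (0.901), and for CRY2 they were APP (0.937), RALGPS2 (0.889) and CD34 (0.887). With 8 foxes and this many candidates the highest r is large for any gene, and these values are a description. Among all 15114 other genes, without the limit on brightness, the best place held by a clock gene was rank 161, by NR1D2 for CRY2. Next was rank 283, by PER2 for CLOCK.

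By their brightest probe sets, 4 of the 8 clock genes were lower on the array titled canine control (PER2, PER3, CRY2 and CLOCK). By the same reading 2 were higher (CRY1 and NR1D2), and PER1 and BHLHE40 did not pass. Other probe sets of NR1D2, PER1 and BHLHE40 read differently, as given below, and NR1D2 as a whole has no direction. Over all genes, 44.6% were called lower and 18.5% higher on that array, by limma with adjusted p under 0.05 over all probe sets. The median difference of the 8 genes was −0.73, against −0.53 for all 15115 genes. The control was outside the range of all 11 foxes for 6 of the 8, where it was for 77.9% of all genes. This is the only contrast in the labels, it rests on 1 control array that the fit takes to vary as the foxes do, and it describes that array. With 1 array against 11, the smallest p an exact permutation could give is 0.0833.

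The activator CLOCK was at 6.04 on the control against 6.76 to 7.33 in the foxes, outside their range, a difference of −0.96 (SE 0.19, limma adjusted p 0.00116). PER2 was at 6.06 against 6.87 to 7.37, a difference of −1.03 (SE 0.16, limma adjusted p 0.000241), and its second probe set was also lower, by −0.78 (limma adjusted p 0.00313). PER3 was at 5.29 against 5.89 to 6.42, a difference of −0.82 (SE 0.17, limma adjusted p 0.00156). On these probe sets the control was the lowest of the 12 arrays. The second probe sets of CLOCK and PER3 did not pass: CLOCK's was at 6.36 on the control, inside the 6.19 to 7.17 of the foxes, a difference of −0.57 (limma adjusted p 0.103), and PER3's was at 3.66, inside 3.65 to 3.91, a difference of −0.13 (limma adjusted p 0.387). CRY2, with its single probe set, was also lowest on the control, at 6.58 against 7.01 to 7.63, a difference of −0.75 (SE 0.22, limma adjusted p 0.0127). The median difference over all probe sets was −0.46. Beyond that shift the 4 differences were −0.51 for CLOCK, −0.57 for PER2, −0.37 for PER3 and −0.29 for CRY2. Centring each array on its own median is another correction with a smaller shift. Those medians were 6.85 on the control and 7.06 to 7.17 in the foxes. With each array centred on its median CRY2 no longer passed (−0.48, limma adjusted p 0.0738), nor with quantile normalization again (−0.47, limma adjusted p 0.0844).

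CRY1 was the clock gene with the largest positive difference. It was at 7.39 on the control and at 4.99 to 7.20 in the foxes, a difference of 1.70 (SE 0.69, limma adjusted p 0.0481). Fox 10, at 7.20, and fox 11, at 6.95, were close to the control, and foxes 1 to 8 were at 5.58 or lower. Against foxes 1 to 8 alone the difference was 2.07 (limma adjusted p 1.31e-05). With any 1 of foxes 1 to 9 left out the adjusted p by limma lay between 0.0546 and 0.0635, so that the call rested on a narrow margin, and without fox 10 or fox 11 it was 0.00964 or 0.0198.

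NR1D2 gave both directions. Its brightest probe set was at 6.87 on the control against 5.70 to 6.27 in the foxes, a difference of 0.93 (SE 0.22, limma adjusted p 0.00369). Its second probe set was at 4.18 against 5.55 to 6.32, a difference of −1.75 (SE 0.23, limma adjusted p 6.53e-05). The other 3 differed by 0.38, −0.07 and −0.20 and did not pass. The mean over its 5 probe sets differed by −0.14 (limma adjusted p 0.210), so no direction can be given for the gene as a whole.

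PER1 and BHLHE40, the most variable genes in the foxes, lay within the fox range on the control. PER1 was at 10.07 against 9.96 to 12.39, a difference of −0.71 (SE 0.79, limma adjusted p 0.444). All 5 other PER1 probe sets were lower on the control and below all 11 foxes, by −0.47 to −1.38, with limma adjusted p between 2.36e-05 and 0.0470. The mean of the 6 differed by −0.90 (limma adjusted p 0.00394), and after quantile normalization again the brightest passed too, at −1.50 (limma adjusted p 0.0375). BHLHE40 was at 11.31 against 8.15 to 11.80, a difference of 1.39 (SE 1.07, limma adjusted p 0.271). Against foxes 1 to 8 alone it was 1.92 higher (limma adjusted p 0.0198), and 3 of 8 genes were then higher and 4 lower, where 22.9% and 51.6% of all genes were. Its second probe set was lower on the control, by −0.70 (limma adjusted p 0.0129).

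By probe sets, 12 of 22 were lower on the control and 2 were higher, against 42.1% and 18.9% of all probe sets, and 61.0% called either way. The control lay outside all foxes for 16 of the 22, against 77.0% of all probe sets. Their median difference was −0.70, against −0.46 for all probe sets. The scores of the blood cell lists were below all foxes on the control. They were −3.46 for neutrophil, −1.86 for platelet, −1.81 for monocyte, −1.78 for erythroid and −0.66 for lymphocyte genes. The glucocorticoid score, −0.13, lay within the −0.59 to 1.08 of the foxes. The GAPDH measure of RNA length was −0.08 on the control. It was 0.42 to 1.08 in foxes 9, 10 and 11 and 2.56 to 3.19 in the other foxes. The probes target dog sequence, and the title and label of the control differ on its species. Tissue of origin, RNA length and species cannot be separated on a single control array. The part of each in the clock differences was not tested.

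**Figure D4:**
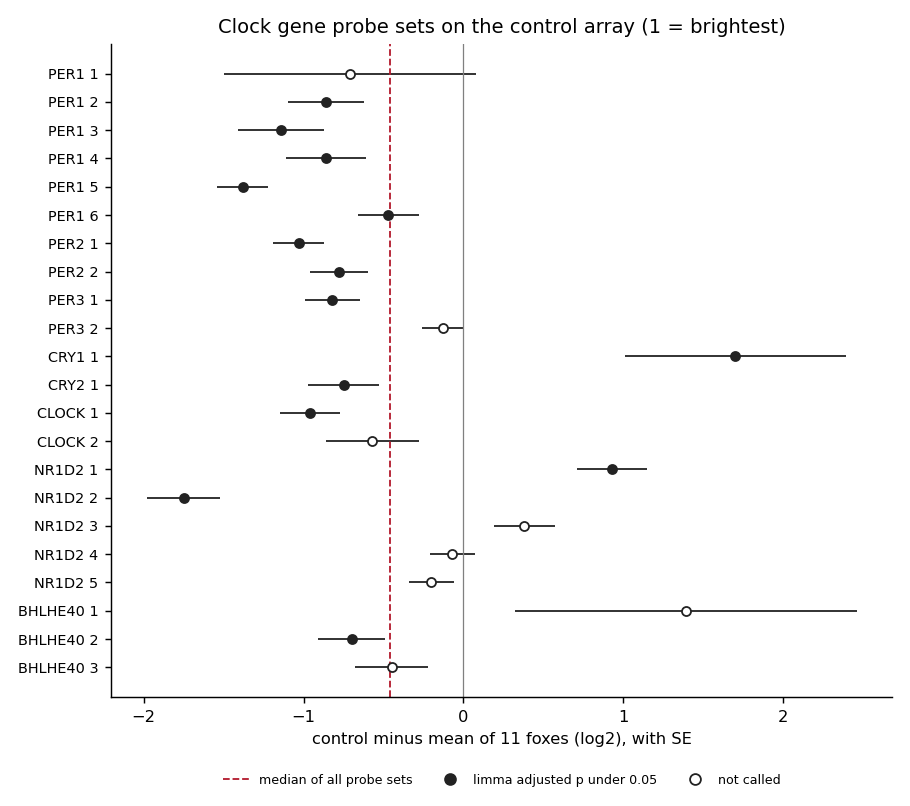
Control minus the mean of the 11 foxes in log2 units (horizontal axis) for the 22 clock probe sets, ranked within each gene from the brightest (vertical axis); bars are the SE of the fit, filled points passed a limma adjusted p of 0.05, and the dashed line is the median of all probe sets at −0.46. Of the filled points 12 lie left of 0 and 2, the brightest sets of CRY1 and NR1D2, lie right of it.

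The other genes of the pathway were read from a list of 29, of which 22 had a probe set of their own symbol. On the control 1 was higher, 6 were lower and 15 did not pass, where 63.2% of all genes passed in either direction, and the median difference was −0.37. NFIL3, the repressor that opposes DBP at its promoter element, was at 10.99 on the control against 12.64 to 15.02 in the foxes, a difference of −2.84 (SE 0.79, limma adjusted p 0.00888). BHLHE41, the close relative of BHLHE40, went the other way, at 8.17 against 5.38 to 7.03, a difference of 2.33 (SE 0.47, limma adjusted p 0.00134). Both lay outside all 11 foxes.

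Among the remaining called genes, NOCT differed by −1.20 (limma adjusted p 0.00454) and the clock-controlled protease USP2 by −1.11 (limma adjusted p 0.0487). USP2 no longer passed without any 1 of foxes 1, 2, 3, 4, 7, 8 and 11, at a limma adjusted p of up to 0.0643, or with arrays centred on their medians, at 0.158. KLF10 and KLF9, zinc finger factors under clock and hormone control, differed by −0.88 and −0.67 (limma adjusted p 0.000921 and 0.00538), and KLF9 did not pass with arrays centred (0.0552). NPAS2, which can take the place of CLOCK, differed by −0.81 (limma adjusted p 0.00363) and so lay lower together with CLOCK.

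Of the core genes that did not pass, ARNTL, which encodes BMAL1, was at 8.36 on the control, a difference of 0.87 (SE 0.55, limma adjusted p 0.178). ARNTL lay at 6.81 to 7.47 in foxes 1 to 8 and at 7.78 to 8.74 in foxes 9 to 11, which did not overlap. Against foxes 1 to 8 alone the control was 1.16 higher on this brightest probe set. With the mean of all ARNTL probe sets, the difference from the 11 foxes was only 0.19. TEF, an activator of the DBP family, differed by −0.61 (limma adjusted p 0.0654). CSNK1D and CSNK1E, kinases that mark the PER proteins for degradation, differed by −1.11 and −0.19 (limma adjusted p 0.422 and 0.408), and CSNK1E turned to 0.07 with arrays centred on their medians. With the mean of all their probe sets both passed as lower, CSNK1D by −1.01 and CSNK1E by −0.60 (limma adjusted p 0.0339 and 0.000684). CSNK1D was at 7.83 to 9.10 in foxes 1 to 8 and at 10.68 to 11.47 in foxes 9 to 11.

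By brightest probe sets, foxes 9 to 11 lay above all other foxes for 6 of these 22 genes (ARNTL, NFIL3, CSNK1D, GSK3B, HDAC3 and NCOR1). They lay below for 4 (TEF, HLF, TIMELESS and KLF10), where 14.2% and 14.6% of all genes lay above and below. The lowest of foxes 9 to 11 was barely above the highest other fox for NFIL3 (14.41 against 14.40) and NCOR1 (14.55 against 14.51). The gap was also small for HDAC3 (11.54 against 11.48) and GSK3B (10.45 against 10.38), and wider for ARNTL and CSNK1D. TEF and HLF, relatives of DBP, were both among those below, at 5.94 to 6.21 against 6.35 to 6.76 and at 5.21 to 5.51 against 5.54 to 6.28. The SD over the foxes was at least 0.5 for 6 of the 22, against 18.3% of all genes, and for 2 of them within foxes 1 to 8. The array quality control, array SD and cell scores given for these 3 foxes moved with these genes as well, and their part was not tested.

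**Figure D5:**
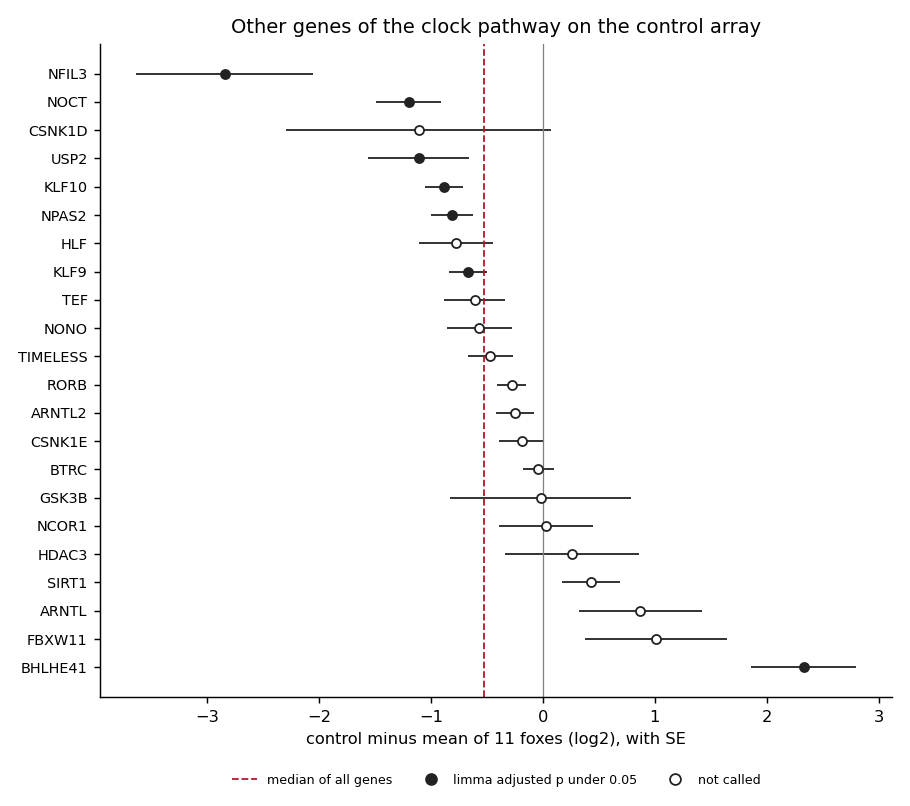
Control minus the mean of the 11 foxes in log2 units (horizontal axis) for 22 other genes of the clock pathway (vertical axis, ordered by difference); bars are the SE of the fit, filled points passed a limma adjusted p of 0.05, and the dashed line is the median of all genes at −0.53. NFIL3 at −2.84 and BHLHE41 at 2.33 are the outermost points, and 15 of 22 points are open.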

How the data were processed

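Blood RNA was collected in RNA-stabilising tubes and hybridised to Affymetrix Canine Genome 2.0 arrays, per the labels' protocols. The submitters' processing notes name RMA and Affymetrix Expression Console for the log2 values the authors deposited. Software versions, and the set of arrays normalized at one time, are not stated there. The values covered 43035 probe sets from 3.23 to 15.64. After removal of 111 control probe sets, 42924 were tested, and 29254 of them had 1 gene symbol (15115 genes). Of the 10 clock symbols, 9 stood in the Arctic fox RefSeq annotation. The members and lists were chosen with earlier results of these data known.

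The control array, and each fox in turn, was compared with the other foxes by limma 3.58.1 in R 4.3.3 (lmFit and eBayes), with Benjamini-Hochberg adjustment over the 42924 probe sets and calls at 0.05. The foxes were split at the widest gap of the GAPDH 3' minus middle difference. Within the larger set of 8, exact two-sided permutation tests of Pearson's r and Spearman's rho went through all orders of the foxes. They were computed with numpy 2.4.6, with the ranks for rho from scipy 1.17.1. In a repeat of r, the 2 foxes farthest from the median of the first variable were left out. Of 12 arrays only 1 was a control, which limits the precision. Both tests were tested on simulated data. All clock genes with a probe set are named. Of the pathway list, the called genes with the largest differences (up to a fixed number) and the core genes ARNTL, NPAS2, NFIL3, TEF, CSNK1D and CSNK1E are named whatever their value. Correlations of each PER1 and PER3 probe set with the lists were added after seeing the data.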

Additional observations from a re-analysis of the deposited data

Results flagged for a closer look

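The third BHLHE40 probe set stood at 6.59 in fox 5, the highest of foxes 1 to 8, where the next fox was at 6.15 and the lowest at 5.90. Its gap to the next fox took up more of the range than Dixon's 95% critical value for 8 arrays, 0.526. Fox 5 was at the same time the lowest fox on the brightest BHLHE40 probe set, at 8.15. The highest and the lowest fox of each of 22 probe sets were looked at, 44 values, and this was the only 1 past the critical value, where chance alone passes about 1 in 20 groups.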

How the results depend on the processing

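The number of clock genes called on the control, 6 of 8, was 5 to 7 under other normalizations, limma with trend and robust settings, the range of the foxes, the mean of all probe sets, foxes 1 to 8 alone, and each fox left out in turn (5 to 6). It was 1 of the 3 genes kept by a filter on dim probe sets and 2 when a log2 difference of 1 or more was also required, both of which remove genes by construction. NR1D2 turned to −0.14 with the mean of its probe sets. Arrays centred on their medians moved the median of the 8 genes to −0.46. Of the pathway list, 7 calls became 3 with the filter, 4 with the log2 threshold, 11 with the mean of probe sets, 12 by range, 13 against foxes 1 to 8, and 6 to 10 with a fox left out, and CSNK1E turned to 0.07 when centred. The 3 genes that varied became 1 with an SD of at least 1 or with the mean of probe sets, and stayed at 3 with any fox left out. Leaving out foxes gave 0 to 1 pairs of clock genes past the threshold (1 without fox 1). The 4 list relations became 1 with quantile normalization, 2 when centred, 1 by Spearman, 0 with the mean of probe sets, and 0 to 5 with a fox left out; the cause was not tested. By single probe sets PER1 turned to −0.02 with the neutrophil and −0.07 with the monocyte score, and PER3 to −0.29. None of the 6 alternatives called a clock gene in a single fox. No paired analysis was possible because there was 1 control array, which the labels link to no fox. Without detection calls, dim probe sets have no floor.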
